A study of Mus musculus with 12 samples.

Results

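The genes described here carry long-chain fatty acids into heart muscle cells and break them down in mitochondria. The 10 genes were chosen by function, with earlier results of these data known: Cd36, Fabp3, Cpt1b, Cpt2, Acadm, Acadl, Acadvl, Hadha, Hadhb and Ucp3. Of these, 9 had at least 1 probe set annotated to that gene alone, 15 probe sets in all out of the 22690 on the array. All 15 were among the 14932 probe sets bright enough to be tested, so no member entered the test because of 1 bright group. Cpt1b, the muscle form of the enzyme that commits fatty acids to mitochondrial import, was measured here only by a probe set that it shares with Chkb and Gm44502, and no value is given for it.

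Total RNA from mouse heart was measured on 12 Affymetrix MOE430A arrays. The 4 groups of 3 arrays were control hearts at 8 weeks, mdx hearts at 8 weeks, control hearts at 10.5 months and mdx hearts at 10.5 months. The mdx mouse carries a mutation in Dmd, the dystrophin gene, in all its cells, and is used as a model of Duchenne muscular dystrophy. No further allele or treatment is named for any group, and the strain, the sex and any pooling of animals are not given in the sources used here. Nothing there says that the 3 arrays of a group came from separate animals, so p-values measure only the spread between these arrays.

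The heart takes most of its energy from long-chain fatty acids. CD36 helps them across the cell membrane and FABP3 carries them in the cytosol. Carnitine palmitoyltransferases move them into the mitochondrion, CPT1 on the outer and CPT2 on the inner membrane. Acyl-CoA dehydrogenases of different chain-length preference (ACADVL, ACADL, ACADM) then start each round of beta-oxidation. The trifunctional protein, built from HADHA and HADHB, carries out the remaining steps on long chains, and UCP3 is an inner-membrane protein of muscle whose expression follows the supply of fatty acids. Many of these genes are known targets of the nuclear receptor PPARA, which binds DNA at repeats of the half-site AGGTCA.

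The 250 bases before the RefSeq start of 3 members are shown because the results turn on them: Hadhb holds the member probe set that passed the test, Acadm was the acyl-CoA dehydrogenase whose mdx and control ranks did not overlap at 8 weeks, and the 2 Ucp3 probe sets took opposite signs at the 2 ages. They are written 5′ to 3′ on the gene's own strand in lower case from the mouse build GRCm38.p6, with AGGTCA on either strand in capitals.
Hadhb, chr5:30155003-30155252, plus strand: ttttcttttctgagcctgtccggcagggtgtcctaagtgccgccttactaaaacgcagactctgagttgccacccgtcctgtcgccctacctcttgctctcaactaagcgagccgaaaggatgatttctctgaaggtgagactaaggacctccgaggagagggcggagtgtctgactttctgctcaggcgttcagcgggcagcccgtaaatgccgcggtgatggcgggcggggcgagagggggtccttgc
Acadm, chr3:153944644-153944893, minus strand: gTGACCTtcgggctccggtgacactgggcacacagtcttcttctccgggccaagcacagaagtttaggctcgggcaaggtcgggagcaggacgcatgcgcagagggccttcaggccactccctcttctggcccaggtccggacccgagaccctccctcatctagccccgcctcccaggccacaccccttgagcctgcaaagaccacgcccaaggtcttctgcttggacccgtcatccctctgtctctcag
Ucp3, chr7:100472741-100472990, plus strand: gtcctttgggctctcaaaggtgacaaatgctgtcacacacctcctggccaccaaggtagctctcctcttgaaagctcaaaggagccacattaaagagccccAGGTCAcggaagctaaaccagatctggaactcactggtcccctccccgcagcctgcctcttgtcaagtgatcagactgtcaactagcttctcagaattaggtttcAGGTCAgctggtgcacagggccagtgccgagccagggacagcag

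All 9 measured members had a promoter in the RefSeq table. AGGTCA, searched on both strands, was present in 4 of the 9 (Cd36, Acadm, Acadvl and Ucp3), against 14.02% of the 32851 promoters in the table cut to the same length. Ucp3 held 2 copies, as the capitals show, and the Hadhb promoter above held none. 2 such half-sites in a row with 1 base between them, the direct repeat, were in 0.03% of all promoters and in 0 of the 9. The letters of the GC box, GGGCGG, were in 5 of the 9 (Cd36, Cpt2, Acadl, Hadha and Hadhb) and in 32.74% of all promoters. TCAAGGTCA, a site of estrogen-related receptors that contains AGGTCA, was in 0.39% of promoters, the MEF2 site (CTA and TAG with 4 bases between) in 3.2% and the NRF1 core in 0.78%, each in 0 of the 9. Hadha and Hadhb lie head to head with 272 bases between their starts, so each gene's 250 bases are largely the other strand of the other's. A match is a description of these letters, and no binding was measured here.

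Signals are intensities, scaled so that the trimmed mean of each array is 500, and differences are on the log2(signal + 32) scale. The deposited median signal was 532.8 to 665.8 units per array. Dmd itself was 607, 780 and 623 in control hearts at 8 weeks and 839, 839 and 796 at 10.5 months, against 264, 279 and 159 and then 264, 286 and 195 in mdx hearts, so the labels and the gene went together on all 12 arrays. Heart is named in the titles and sources of the samples, while a keyword names extraocular muscle. All 10 ventricular myocyte markers were bright enough to be tested, and 9 of 10 fast skeletal muscle markers were not. The one tested, Atp2a1, had group means of 249 to 290. In whole-heart RNA, fewer cells of a type and less RNA per cell cannot be told apart.

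On 4 arrays the bright end of the signal reached much further than on the other 8, although all arrays had the same trimmed mean. The 99th percentile of the deposited signal was above 40000 units on control replicate 2 at 8 weeks, mdx replicates 1 and 2 at 8 weeks and mdx replicate 3 at 10.5 months, and at most 32809.5 units elsewhere. Most members are among the brightest probe sets of these hearts, so each member result is given both as scaled and after quantile normalization, which gives every array the same distribution. Actin probe sets gave the highest 3′ to 5′ ratio, 1.44, on mdx replicate 3 at 10.5 months, against at most 1.289 on the other arrays. Gapdh probe sets gave their highest ratio, 0.973, on mdx replicate 1 at 8 weeks, against at most 0.845 elsewhere. That array had the second highest actin ratio, 1.289, and also the highest mean member signal; the part of RNA quality in the member values was not tested.

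Member signals followed that bright end at 8 weeks. The mean over the 9 genes of the log2 signal, centred on each gene's mean over the arrays, was 0.341 on control replicate 2, 0.749 on mdx replicate 1 and 0.549 on mdx replicate 2. It was -0.216 and -0.133 on the other control arrays and -0.33 on mdx replicate 3. The wide arrays were thus the high ones within each 8-week group. At 10.5 months the 6 arrays lay between -0.196 and -0.119, and the wide array, mdx replicate 3, at -0.177. After quantile normalization the 8-week arrays lay between -0.026 and 0.161, and mdx replicate 3 at 10.5 months was the lowest of all 12, at -0.356. That array was wide and yet its members were no higher than those of its neighbours; what set it apart was not tested.

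**Figure D1:**
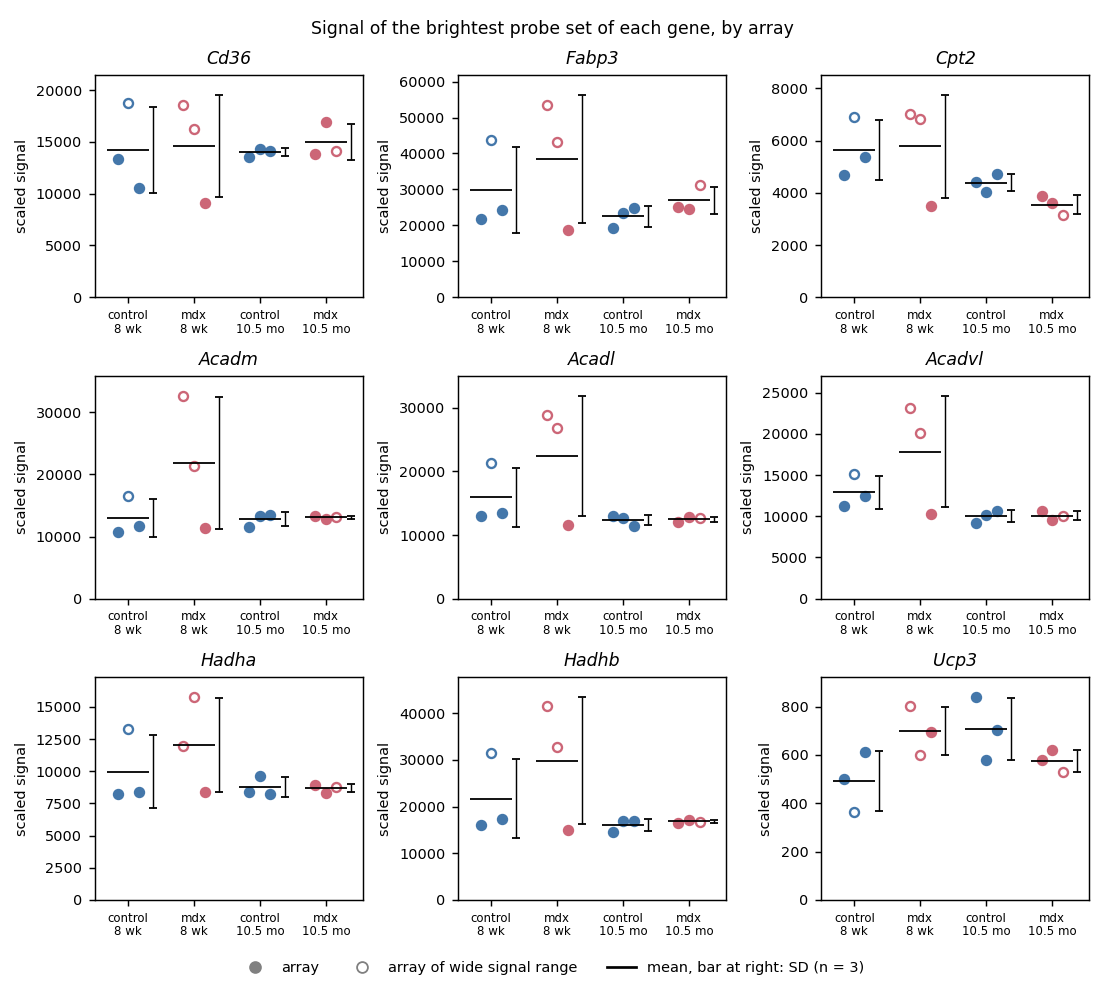
Scaled signal of the brightest probe set of each of the 9 measured members (vertical axes, linear, from 0) in the 4 groups of 3 arrays; points are arrays, open points the 4 arrays of wide signal range, and bars mean ± SD. The open points at 8 weeks lie above the filled ones of their group for every member but Ucp3, and within each genotype the SD at 10.5 months is smaller than at 8 weeks for every member but Ucp3 in control hearts.

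Uptake and binding of fatty acids showed no change that passed the test between mdx and control hearts at either age. Cd36, the membrane receptor, had 13369, 18729 and 10522 in control hearts at 8 weeks and 18531, 16225 and 9083 in mdx hearts. The ranges overlapped almost wholly, and the difference was 0.02 ± 0.25 (SE), with a 95% interval of -0.53 to 0.57. At 10.5 months control hearts had 13573, 14323 and 14158 and mdx hearts 13854, 16936 and 14117, a difference of 0.09. The sign of these Cd36 differences depended on the scaling: they were -0.26 and -0.18 after quantile normalization. Its other probe sets differed at 8 weeks by 0.37 and -0.02, neither of which passed (limma adjusted p = 0.299 and 0.974).

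Fabp3, the fatty acid binding protein of heart and slow muscle, had 21815, 43639 and 24244 in control hearts at 8 weeks. In mdx hearts of that age it had 53529, 43153 and 18788. The highest value of each group was on a wide array, and the ranges overlapped. At 10.5 months it was 19290, 23436 and 24698 in control hearts and 25027, 24576 and 31276 in mdx hearts. The scaled differences were 0.30 ± 0.34 and 0.26 ± 0.34, and after quantile normalization -0.04 and 0.00 with 95% intervals of -0.29 to 0.21 and -0.25 to 0.25. In rank, Fabp3 stayed between the 7th and the 20th brightest probe set on every array, so it was near the top of the signal throughout. Quantile normalization gives such ranks nearly the same values on every array, here 27678 to 31193. It could therefore show little change in Fabp3, and its narrow intervals do not show that there was none.

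Cpt2, which releases the acyl group from carnitine inside the mitochondrion, did not differ detectably at 8 weeks, when control hearts had 4669, 6906 and 5382 and mdx hearts 7027, 6820 and 3512. At 10.5 months the 3 mdx arrays, with 3875, 3617 and 3147, all lay below the 3 control arrays, with 4435, 4038 and 4707. Cpt2 was the only member probe set whose groups did not overlap in that comparison, lower in mdx as were 10.6% of all tested probe sets (9.22% after quantile normalization, again with Cpt2 alone), so 1 of 15 is no more than the background. The difference was -0.31 ± 0.24 (limma adjusted p = 0.812), and -0.39 ± 0.18 after quantile normalization (0.654). Its second, dim probe set differed by -0.12 ± 0.19 with overlapping groups.

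Among the acyl-CoA dehydrogenases, Acadm, the medium-chain enzyme, had the largest scaled 8-week difference. It was 10742, 16451 and 11767 in control hearts and 32621, 21334 and 11369 in mdx hearts, so mdx replicates 1 and 2 were high and mdx replicate 3 lay inside the control range. Among the narrow arrays the 2 controls (10742 and 11767) enclosed the 1 mdx array (11369), while both wide mdx arrays (32621 and 21334) were above the wide control (16451). The scaled difference was 0.64 ± 0.29, 1.56-fold, and did not pass the test (limma adjusted p = 0.273). Without mdx replicate 3 it was 1.05 and passed (0.0373), so that 1 array decides the call. In rank within an array, which no scaling of that array moves, Acadm was 163rd to 179th in control hearts and 86th to 127th in mdx hearts, without overlap. Quantile normalization left a difference of 0.31 ± 0.14 (0.265). At 10.5 months control hearts had 11575, 13336 and 13523 and mdx hearts 13237, 12872 and 13156, a difference of 0.03 ± 0.29.

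Acadl, the long-chain enzyme, was 12957, 21308 and 13501 in control hearts at 8 weeks and 28838, 26824 and 11560 in mdx hearts. Acadvl, the very-long-chain enzyme of the inner membrane, was 11224, 15103 and 12415 in control hearts and 23129, 20167 and 10226 in mdx hearts. In both genes mdx replicates 1 and 2 were high and mdx replicate 3 was the lowest of the 6 arrays. Their scaled differences were 0.42 ± 0.29 and 0.39 ± 0.25 (limma adjusted p = 0.485 and 0.431), and after quantile normalization 0.11 and 0.07. Acadvl passed the test without mdx replicate 3, with 0.75 (0.0494). At 10.5 months the scaled differences of both were below 0.02, and their groups overlapped. After quantile normalization they were -0.26 and -0.24 there, neither of which passed (0.73 and 0.737). A second Acadl probe set was dim, at 63.0 to 176 on the 12 arrays, and its groups overlapped at both ages.

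The trifunctional protein gave the member result that passed the test, on 1 of the 2 probe sets of Hadhb, the beta subunit. On 1437172_x_at, Hadhb was 4887, 5574 and 4070 in control hearts at 8 weeks and 11141, 10531 and 7941 in mdx hearts. All 3 mdx arrays lay above all 3 control arrays. This held within the narrow arrays (7941 against 4887 and 4070) and within the wide ones (11141 and 10531 against 5574). The rise was 1.02 ± 0.18 on the log2 scale, 2.03-fold, with limma adjusted p = 0.0166. After quantile normalization it was 0.86 ± 0.14 (0.0111), and 0.91 (0.0131) in a fit with a term for wide and narrow arrays. The call was lost when only the 6 arrays at 8 weeks were fitted, where the same difference had an adjusted p of 0.115, and without control replicate 3, where it was 0.90 (0.0727).

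The other Hadhb probe set, 1426522_at, did not pass the test. It was 16160, 31437 and 17402 in control hearts at 8 weeks and 41618, 32883 and 15010 in mdx hearts, with overlapping ranges. Its scaled difference was 0.41 ± 0.32 (limma adjusted p = 0.551), with a 95% interval of -0.289 to 1.099 that holds the 1.02 of 1437172_x_at. In rank it was 49th to 54th in control hearts and 41st to 48th in mdx hearts, without overlap. After quantile normalization the difference was 0.06 ± 0.14, with a 95% interval of -0.24 to 0.36 that does not hold the 0.86 of 1437172_x_at. However, 1426522_at lies near the top of the signal, where that step limits the rise that can show. It then averaged 21747 in control hearts at 8 weeks, while Fabp3, at ranks 7 to 20, reached at most 31193. A rise of 0.86 would pass that level, so the interval cannot decide whether 1426522_at rose as much, though a smaller rise had room to show. In scaled signal its narrow mdx array (15010) lay below the narrow controls (16160 and 17402). On 1437172_x_at the same narrow arrays had the opposite order. The wide mdx arrays (41618 and 32883) were above the wide control (31437) on 1426522_at. The mean of the 2 probe sets did not pass the test. The suffix _x_at is the manufacturer's mark for a probe set whose probes may also bind other transcripts; whether they did here was not tested. Hadha, the alpha subunit, was 8260, 13263 and 8386 in control hearts and 11982, 15737 and 8380 in mdx hearts, a difference of 0.26 ± 0.23 (0.594) with overlapping ranges.

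At 10.5 months neither subunit showed a difference that passed the test. On 1437172_x_at Hadhb was 5606, 5545 and 4472 in control hearts and 4988, 5308 and 6061 in mdx hearts, a difference of 0.07 ± 0.18. On 1426522_at it was 14500, 16838 and 16876 against 16583, 17205 and 16729. Hadha was 8402, 9634 and 8203 against 8969, 8339 and 8791. The ranges overlapped in each case. The change of the mdx difference from 8 weeks to 10.5 months on 1437172_x_at was -0.95 ± 0.25, which did not pass (limma adjusted p = 0.162 scaled and 0.0848 after quantile normalization), so its 8-week rise is not shown to differ from the value at 10.5 months.

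Ucp3 did not follow the other members. It lay at ranks 3743 to 7379 on the arrays, and the wide arrays held both its highest and its lowest values at 8 weeks. On 1420657_at it was 501, 364 and 612 in control hearts at 8 weeks and 801, 600 and 696 in mdx hearts. At 10.5 months the order turned, with 837, 581 and 702 in control hearts and 580, 620 and 528 in mdx hearts. The differences were 0.50 ± 0.20 (limma adjusted p = 0.204) and -0.27 ± 0.20 (0.798), and the change between the ages -0.77 ± 0.28 (0.29). The second probe set, 1420658_at, was 348, 325 and 493 against 592, 504 and 443 at 8 weeks and 766, 505 and 845 against 507, 443 and 385 at 10.5 months. Its differences were 0.39 ± 0.21 (0.368) and -0.61 ± 0.21 (0.616), and their change -0.99 ± 0.30 (0.208). The 2 probe sets of Ucp3 thus had the same signs, scaled and after quantile normalization, and none of these differences passed the test.

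**Figure D2:**
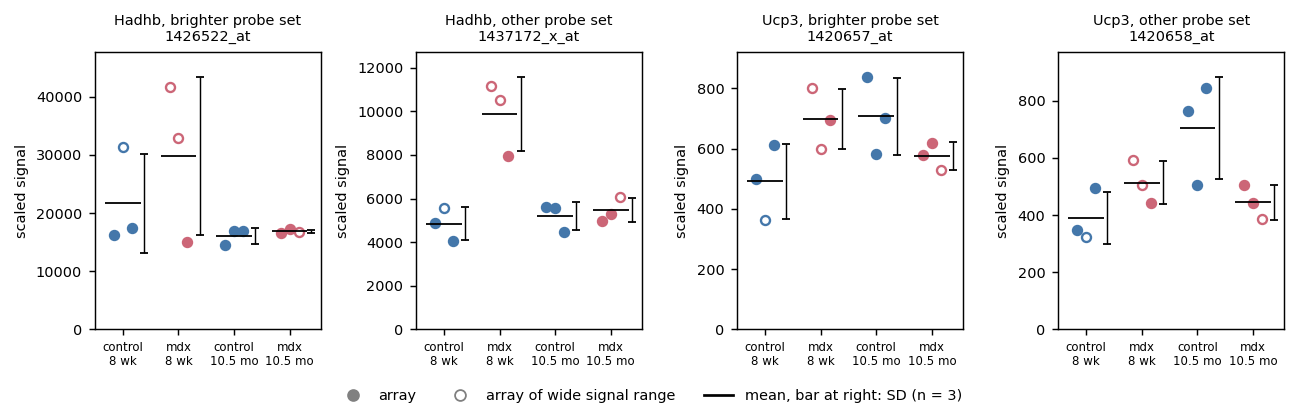
Scaled signal (vertical axes, linear, from 0) of the 2 probe sets of Hadhb and the 2 of Ucp3 in the 4 groups of 3 arrays; points are arrays, open points the 4 arrays of wide signal range, and bars mean ± SD. On Hadhb 1437172_x_at the 3 mdx arrays at 8 weeks, at 7941 to 11141, stand above the other 9, at 4070 to 6061.

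Counted over the members, 1 of 15 probe sets was called in mdx against control hearts at 8 weeks, a rise, against 2.3% of all tested probe sets. Of the 15, 13 were positive and 2 negative, 3 had an unadjusted p below 0.05, against 17.8% of all, and 1 had groups that did not overlap, higher in mdx, against 9.51%. With the brightest probe set standing for each gene, 8 of 9 genes were positive and the median difference was 0.39, beside -0.01 over all 8852 tested genes. Leaving out 1 array moved that median from 0.16 (without mdx replicate 1 at 8 weeks) to 0.75 (without mdx replicate 3); without control replicates 1 and 2 in turn it was 0.23 and 0.51, and without mdx replicate 2 it was 0.24. After quantile normalization 6 of 9 were positive, the median was 0.07, and again 1 of 15 was called, against 3.04%. Most of the members' scaled 8-week difference is therefore not present when the arrays are given 1 distribution. In that version the groups of 4 of 15 probe sets did not overlap, all higher in mdx (Acadm, both of Hadhb and Ucp3 1420657_at), against 9.82% of all probe sets that were so in that direction.

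At 10.5 months 0 of 15 probe sets were called by limma, against 0.0469% of all, and 1 of 15 had an unadjusted p below 0.05 (Ucp3 1420658_at), against 7.37%. The median over the 9 genes was 0.01, with 6 positive, beside -0.02 over all genes. After quantile normalization it was -0.21, with 8 negative, and the count of calls was again 0, also against 0.0469%. That median rests in part on mdx replicate 3, whose member mean was -0.356, against -0.008 and -0.086 on the other mdx arrays and 0.029 to 0.089 on the controls: without that array it was -0.12. Without mdx replicate 1 it was -0.31. Of the 9, Fabp3 alone was then positive, at 0.001.

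The mean of the mdx differences at both ages gave 0 calls among the 15 (0.201% of all probe sets were called) and 1 unadjusted p below 0.05, against 13.6% of all, on Hadhb 1437172_x_at with 0.54 ± 0.13 (limma adjusted p = 0.102). The difference between the ages likewise gave 0 calls, against 0.154%, and 3 unadjusted p below 0.05, on Hadhb 1437172_x_at and both Ucp3 probe sets, against 12.1% of all. The member medians of these comparisons were 0.20 and -0.33 scaled, and -0.07 and -0.27 after quantile normalization, which again gave 0 calls in both (0.288% and 0.194% of all).

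**Figure D3:**
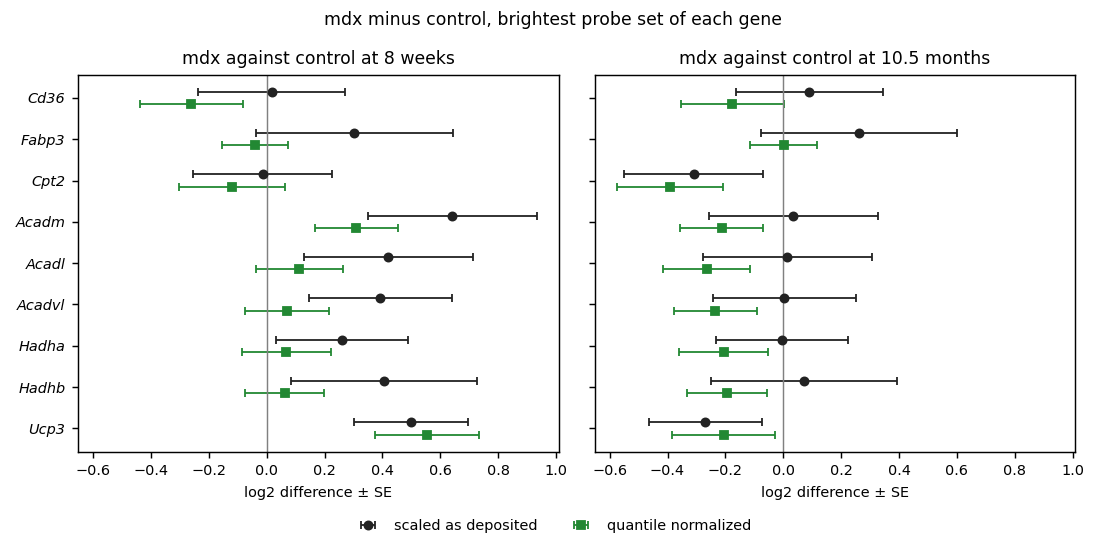
Log2 difference, mdx minus control, at 8 weeks (left) and 10.5 months (right) for the brightest probe set of each member, with bars of ± SE from the limma fit; black circles are scaled signals and green squares quantile-normalized ones. At 8 weeks the black circles are mostly positive and the green squares nearer 0, and at 10.5 months 8 of 9 green squares are below 0.

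Age was compared within each genotype; these comparisons share their arrays with those above. In control hearts, 0 of 15 member probe sets were called from 8 weeks to 10.5 months, against 0.147% of all, and 2 of 15 had an unadjusted p below 0.05, against 12.2%. Both were Ucp3, higher at 10.5 months by 0.51 ± 0.20 and 0.80 ± 0.21 (limma adjusted p = 0.325 and 0.181). The older control hearts lay above all the younger ones on 1420658_at, and Acadvl lay below in all 3, at 9246, 10211 and 10680 against 11224, 15103 and 12415. These 2 probe sets compare with 22.7% of all whose groups did not overlap. The Acadvl difference was -0.35 ± 0.25 (0.61). The median over the 9 members was -0.33 scaled and -0.03 after quantile normalization. Without control replicate 1 at 8 weeks the scaled median was -0.45, and without control replicate 2 of that age, a wide array, it was -0.04. The quantile-normalized version gave 0 calls (0.161% of all), and its groups did not overlap for 4 probe sets higher and 2 lower in older hearts, against 23.3% of all.

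In mdx hearts the mean at 10.5 months was lower than at 8 weeks for 8 of 9 members under both scalings. The called probe set was again Hadhb 1437172_x_at, 1 of 15 against 11.4% of all tested probe sets (13% after quantile normalization, with the same 1 call). An unadjusted p below 0.05 was found for 6 of 15, against 30.2%. It fell by 0.84 ± 0.18 on the log2 scale (limma adjusted p = 0.0126), from 7941 to 11141 at 8 weeks to 4988 to 6061 at 10.5 months. After quantile normalization the difference was -0.70 ± 0.14 (0.0103), and it passed in all 22 alternatives run. The same 3 young mdx arrays serve in this fall and in the 8-week rise, so they are not separate evidence.

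The other beta-oxidation members did not pass. Acadvl differed by -0.74 ± 0.25 (limma adjusted p = 0.0666), Acadl by -0.73 ± 0.29 (0.115), Cpt2 by -0.64 ± 0.24 (0.0974), Acadm by -0.61 ± 0.29 (0.181), Hadhb 1426522_at by -0.70 ± 0.32 (0.162) and Hadha by -0.42 ± 0.23 (0.231). After quantile normalization they were -0.46 (0.0516), -0.41 (0.0868), -0.53 (0.0733), -0.26 (0.235), -0.33 (0.119) and -0.22 (0.346). Cd36 went the other way, at 0.09 ± 0.25 scaled and 0.40 ± 0.18 after quantile normalization (0.148). Mdx replicate 3 at 8 weeks, the narrow array of its group, decides several of these calls: without it, 6 of 15 member probe sets passed, against 12.6% of all in that fit, with Acadl at -1.15, Hadhb 1426522_at at -1.13, Acadvl at -1.10, Acadm at -1.01 and Cpt2 at -0.96. That leaves only wide arrays for mdx hearts at 8 weeks. After quantile normalization, leaving out the same array gave 2 calls, against 12.3%.

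The groups of 2 of 15 probe sets did not overlap in scaled signal, Hadhb 1437172_x_at and the dim Cpt2 probe set, both lower in older mdx hearts, against 15.5% of all in that direction. After quantile normalization there were 6 of 15, all lower, against 15.4%: both of Hadhb, Acadl, Acadvl, Ucp3 1420657_at and the dim Cpt2 probe set. The median over the members was -0.61 scaled and -0.31 after quantile normalization, beside -0.01 and 0.01 over all genes. The scaled median was -0.96 without mdx replicate 3 at 8 weeks and -0.40 without mdx replicate 1 of that age. Without mdx replicate 3 at 10.5 months the quantile-normalized median was -0.19.

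**Figure D4:**
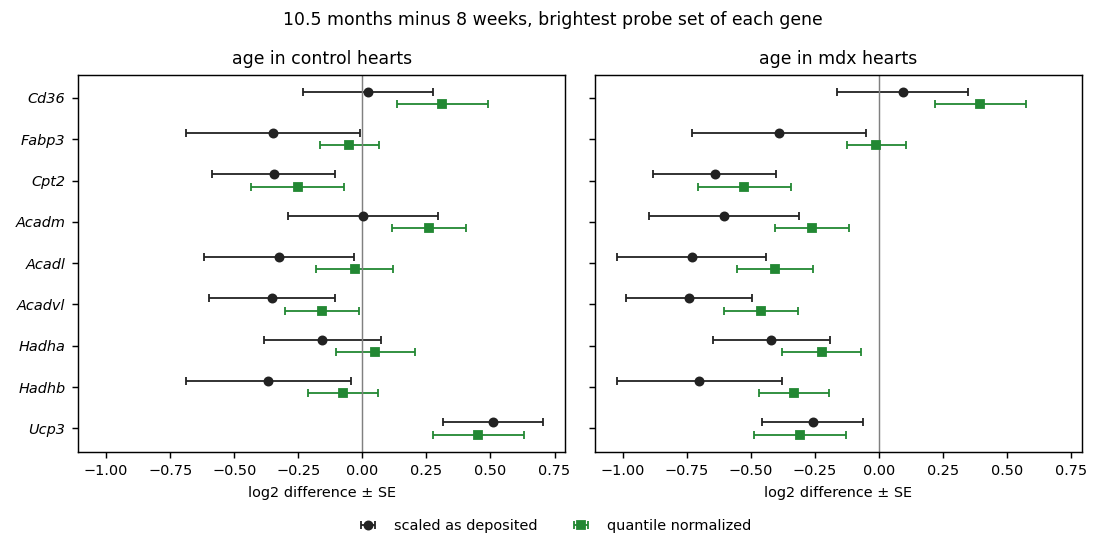
Log2 difference, 10.5 months minus 8 weeks, in control hearts (left) and mdx hearts (right) for the brightest probe set of each member, with bars of ± SE from the limma fit; black circles are scaled signals and green squares quantile-normalized ones. In mdx hearts 8 of 9 members are below 0 under both and Cd36 is above 0; in control hearts Ucp3 is the highest.

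The members were next set beside the contractile genes of ventricular myocytes on the same array. The summed signal of the 9 members was 49.1%, 41.4% and 46.4% of the summed signal of the 10 ventricular markers in control hearts at 8 weeks, and 39.3%, 46.8% and 49.7% in mdx hearts. At 10.5 months it was 48.4%, 45.7% and 43.7% in control hearts and 45.5%, 42.0% and 36.2% in mdx hearts. The groups overlapped at both ages. The 10 ventricular markers had themselves a scaled 8-week median difference of 0.32, all 10 positive and none called, so their direction and size were like those of the members. After quantile normalization that median was -0.05. On mdx replicate 3 at 10.5 months the member sum, 110474, was close to those of the other 10.5-month arrays, 94870 to 106438, while the ventricular sum, 305263, was above their 196042 to 253378. Most members had a lower rank there than on the other 5 arrays of that age: Acadm was 230th against 115th to 151st, Hadhb 1426522_at 142nd against 56th to 69th and Acadvl 343rd against 180th to 278th. Fabp3 was 13th, inside the 8th to 19th of the others, and Hadhb 1437172_x_at had its highest 10.5-month signal there, 6061.

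**Figure D5:**
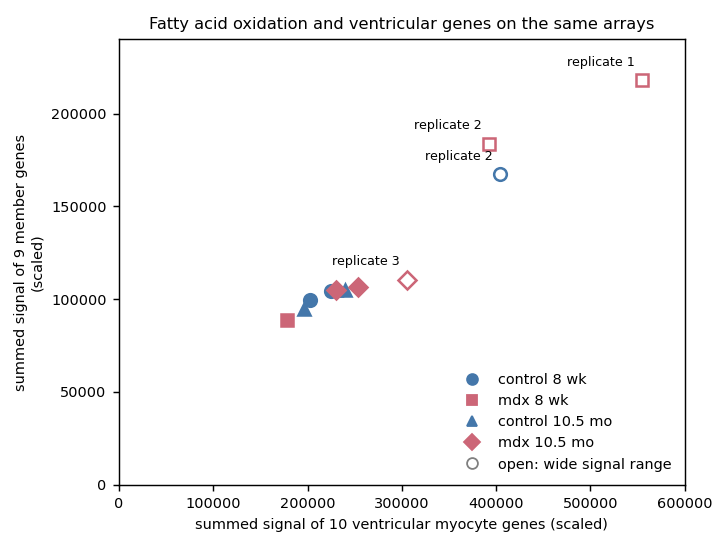
Summed scaled signal of the 9 members (vertical axis) against that of 10 ventricular myocyte genes (horizontal axis), both from 0, 1 point per array; open symbols are the 4 arrays of wide signal range. The sums rise together, and the open diamond, mdx replicate 3 at 10.5 months, has a high ventricular sum (305263) with a member sum of 110474.

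Markers of other cells were at these levels on the same arrays. The 7 atrial markers had a scaled median difference of 0.55 at 8 weeks and -0.88 at 10.5 months, with none called. Their summed signal was 5375 to 7489 in control hearts and 12891 to 13869 in mdx hearts at 8 weeks, and 6086 to 24736 and 12718 to 19346 at 10.5 months. Nppa, the atrial natriuretic peptide, makes up most of that sum, with group means of 4343 in control and 10290 in mdx hearts at 8 weeks and 9267 and 14630 at 10.5 months. At 10.5 months Sln and Myl7 lay the other way, with means of 1157 and 1967 in control and 43.0 and 235 in mdx hearts. The signs of Ucp3 were the same as those of the atrial medians in the 2 mdx comparisons, and the part of atrial tissue in its values was not tested. Among the lists given further below, PPAR targets or partners (0.039 and -0.25) and other mitochondrial beta-oxidation enzymes (0.044 and -0.02) had these signs too. The remaining lists did not. The 13 endothelial markers, a cell type that expresses Cd36, had medians of -0.09 and -0.17, and summed 24788 to 30020 in control and 22556 to 35668 in mdx hearts at 8 weeks, and 24825 to 27681 and 24761 to 26784 at 10.5 months. Macrophages also carry CD36, and their 11 markers were positive in 8 and then 11 of 11, none called, and summed 12072 to 14824 and 14556 to 15891 at 8 weeks and 10692 to 14923 and 13033 to 21096 at 10.5 months. Their part in the Cd36 values was not tested. The adipocyte markers tested, 3 of 8, summed 445 to 874 in control and 290 to 471 in mdx hearts at 8 weeks and 309 to 415 and 263 to 461 at 10.5 months. Adipoq, which defines adipocytes, had group means of 28.4 to 89.2 and Ucp1, which defines brown fat, 11.9 to 17.4, both below the filter. The other 3 of 4 brown fat markers were tested: Cidea had group means of 892 to 1124, Dio2 101 to 196 and Elovl3 102 to 178. Their scaled median difference was 0.021 at 8 weeks, with 2 positive, and 0.235 at 10.5 months, with 3 positive, none called.

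Across the 12 arrays most members had a similar scaled pattern. Likeness was measured as Pearson's r between a gene's log2 signal and the mean centred member signal, as a description; the arrays share their signal range. The nearest genes outside the list were Idh2 (0.99), Mdh2 (0.988), Ldhb (0.987), Cs (0.98) and Pdha1 (0.98). Idh2, Mdh2, Cs and Pdha1 encode mitochondrial enzymes, and Ldhb a lactate dehydrogenase subunit of the cytosol. Each member is itself part of the member mean and the outside genes are not, so their values are not directly comparable. Of the members, Hadhb had 0.987, Acadl 0.981, Acadvl 0.961, Acadm 0.955, Fabp3 0.939, Hadha 0.882, Cpt2 0.85 and Cd36 0.689, while Ucp3 had -0.02. After quantile normalization none of those 5 outside genes was among the nearest, which were Adamtsl4 (0.954), Odf2 and Pwp1 (both 0.914), Atp11a and Gata4 (both 0.906). Fabp3 and Cd36 then had 0.11 and 0.129, and Acadl the highest member value, 0.893. The quantile-normalized member mean was -0.356 on mdx replicate 3 at 10.5 months and -0.086 to 0.161 on the other arrays. These quantile-normalized values of r therefore lean heavily on that 1 array.

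The other genes of fatty acid use are given by lists around the members, with the brightest probe set for each gene. At 8 weeks, 0 of 14 genes of uptake and cytosolic handling were called higher and 1 lower, 0 of 9 of the carnitine shuttle were called, 0 of 20 other mitochondrial beta-oxidation enzymes, 1 of 11 peroxisomal enzymes (higher), 0 of 2 adenine nucleotide carriers and 0 of 9 targets or partners of the PPAR receptors. That is 2 of 65 genes, a share near the 2.3% of all probe sets, and after quantile normalization the same genes were called, against 3.04%. Dgat1, which makes triglyceride, was 732, 728 and 667 in control hearts and 471, 437 and 472 in mdx hearts, and fell by 0.59 ± 0.13 on the log2 scale (limma adjusted p = 0.0424). That call held in 9 of 23 alternatives. Acaa1a, a peroxisomal thiolase, was 559, 476 and 385 against 1277, 972 and 888, a rise of 1.09 ± 0.21 (0.0251) that held in 19 of 23. Its probe set also carries the suffix _x_at. At 10.5 months, and in the mean and the difference over the ages, none of these lists held a call. The adenine nucleotide carrier Slc25a4 had the smallest p of its list in the mean comparison, with 0.34 ± 0.25 (0.546).

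With age in mdx hearts the lists held 3 genes called higher and 5 lower, 8 of 65, a share near the 11.4% of all probe sets, and in control hearts none. After quantile normalization 4 were called higher and 7 lower, 11 of 65 against 13% of all: the same 8 with Acox3 higher (0.72, limma adjusted p = 0.0472) and Acacb and Ppargc1b lower (-0.68, 0.0316, and -0.62, 0.0368). Pnpla2, the lipase that opens triglyceride stores, was 7527, 7472 and 4557 in young and 3453, 3085 and 2742 in old mdx hearts, and fell by 1.04 ± 0.20 (limma adjusted p = 0.00929). Acot1, an acyl-CoA thioesterase of the cytosol and a PPARA target, was 283, 346 and 694 in young and 122, 78.1 and 115 in old mdx hearts, and fell by 1.71 ± 0.35 (0.0106). Both calls held in 23 of 23 alternatives, and neither gene's young and old groups overlapped. Of the same receptor list, Pdk2, a kinase that restrains pyruvate oxidation, differed by -0.78 (0.0177) and Rxra, the partner of the PPAR receptors, by -0.68 (0.0378). Acaa1a differed by -0.73 (0.0415). The genes called higher were Crot, a carnitine acyltransferase of peroxisomes, by 0.61 (0.0181), Acot2, a mitochondrial thioesterase, by 0.64 (0.0262) and Dgat1 by 0.47 (0.0401). Of these 6, the calls of Rxra, Acaa1a and Dgat1 held in 12, 11 and 10 of 23 alternatives, those of Pdk2, Crot and Acot2 in 18 to 20.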

How the data were processed

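The values compared are those the authors deposited, 1 intensity per probe set and array on a linear scale, for 12 arrays. The authors had scaled the arrays, since the deposited trimmed mean (2% left off at each end) was 1500.6 to 1500.9 on each. The labels name the manufacturer's standard protocol, and the software, any detection calls and the genome build are not given in the sources used here. Groups come from the sample titles. Probe sets were named from the platform annotation: 20393 had 1 gene, 691 several and 1606 none.

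Arrays were rescaled to a trimmed mean of 500, and log2(signal + 32) was used, which understates the change of dim genes. After 64 control probe sets, and those with a mean scaled signal below 100, were left out, limma 3.58.1 (R 4.3.3) fitted the 4 groups of 3 arrays together, with 8 residual and 5.2 prior degrees of freedom. Adjusted p-values are Benjamini-Hochberg over 14932 probe sets in each of 6 comparisons, called below 0.05. The number of arrays limits the precision. The scripts were tested on simulated data. Quantile normalization, other scalings, offsets, filters, blocks, array weights and left-out arrays were alternatives.

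The text names every member with all its probe sets. The brightest probe set stands for a gene. From each neighbouring list it names the called genes, or the gene with the smallest p. Members and lists were chosen with earlier results of these data known. Same-numbered arrays did not deviate together (correlations of -0.129 to 0.135, against -0.293 to 0.253 for other pairs), so replicate numbers were not used as pairs.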

Additional observations from a re-analysis of the deposited data

How the results depend on the processing

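Of 90 member differences (15 probe sets, 6 comparisons), 2 were called, 79 were called under no alternative, and 9 were called under at least 1. The sign changed under at least 1 alternative for 36, none of them called. Averaging a gene's probe sets gave 0 calls at 8 weeks and 2 with age in mdx hearts, and fitting the 6 arrays at 8 weeks alone gave 0; that fit has no value for the mean and the difference over the ages. Array weights gave 1 call each in the mean and the difference over the ages and 4 with age in mdx hearts. These counts stand without the share of all probe sets in the same fit and are not read as results about the members. Over all settings, 565 to 2056 calls were made with age in mdx hearts. Leaving out 1 array gave 0 to 3 calls at 8 weeks. There were 0 without control replicate 3 of that age, against 0.281% of all probe sets, and 3 without mdx replicate 3, against 1.42%. With age in mdx hearts it gave 1 to 6 calls, the 6 without mdx replicate 3 at 8 weeks, against 12.6%. The median difference between the ages was -0.747 to -0.16 in these fits. These further settings were chosen after seeing the data: quantile normalization with the signal range block gave 2 calls with age in mdx hearts, again without the share in that fit. Quantile normalization without control replicate 2 or mdx replicate 3 at 8 weeks also gave 2 there, against 14.5% and 12.3% of all probe sets. Without mdx replicate 1 at 10.5 months it also gave 2 there, against 11.3%. Without control replicate 3 at 8 weeks it gave 0 in mdx against control hearts of that age, against 0.703%. Without mdx replicate 3 at 10.5 months the median with age in mdx hearts was -0.188.

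With the replicate block, 1 member probe set was called at 8 weeks and 1 with age in mdx hearts, both Hadhb 1437172_x_at, with limma adjusted p = 0.0269 and 0.0168; the block changed no member call. Over all probe sets the calls ran from 23 to 454 at 8 weeks, 1 to 110 at 10.5 months and 565 to 2056 with age in mdx hearts. They ran from 12 to 100 in the mean and from 0 to 141 in the difference over the ages. The cause of these changes was not tested. The saturation and background of single probe sets cannot be read from these values.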
